A study of Canis lupus familiaris with 6 samples.

Results

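Translation initiation factors and elongation factors were compared between the left ventricles of Great Danes with cardiomyopathy and of control dogs of other breeds. The set held every gene whose symbol in the array annotation starts with EIF and a digit from 1 to 6, or with EEF and the digit 1 or 2, on probe sets that carry exactly 1 symbol. This gave 58 of 15115 measured genes, of which 48 were EIF genes and 10 were EEF genes, on 127 probe sets (groups of short probes for one transcript). A gene's value was the mean of its probe sets, and 20 of the 58 genes had 1 probe set while 38 had several, with at most 5. EIF4G1 and EIF4A1, the main scaffold and helicase of cap binding, were not among the genes found by this rule and are not analysed here.

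Total RNA from frozen left ventricle was hybridised to Affymetrix canine arrays, with 6 dogs and 1 array for each. Control 1 was a male Labrador retriever aged 12 years, control 2 a female St. Bernard aged 10 years, and control 3 a male Greater Swiss Mountain dog aged 4 years. All affected dogs were Great Danes, with cardiomyopathy that the labels abbreviate as DCM: affected 1 was a female aged 9 years, and affected 2 and affected 3 were males aged 7 years. Breed and disease went together, so they cannot be told apart. The deposited values are log2 values centred so that each probe set has a median of 0 across the 6 dogs. A difference of 1 between arrays is therefore 2-fold, genes cannot be ranked by their level, and the labelled tissue could not be checked by the level of its markers. In whole tissue, fewer cells of a type and less RNA per cell cannot be told apart.

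Protein synthesis begins when the small ribosomal subunit, loaded with the initiator tRNA by eIF2 and held open by eIF1, eIF1A and eIF3, is brought to the capped end of an mRNA by eIF4E, eIF4G and eIF4A and scans to the start codon. Supply of eIF2 is limited by stress kinases that phosphorylate it and thereby block its recycling by eIF2B, and supply of eIF4E is limited by the 4E-binding proteins, which release it when mTOR phosphorylates them. Elongation is carried by eEF1A, which delivers aminoacyl-tRNAs, by its exchange factor eEF1B, and by eEF2, which moves the ribosome along. Much of this control acts on phosphorylation, which mRNA arrays do not measure.

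No factor gene passed the adjusted threshold in the comparison of affected with control hearts (limma, smallest adjusted p = 0.322 among the 58, and 0 of 15115 genes called, which is 0%). At limma's unadjusted p under 0.05, 4 factor genes were higher in affected hearts (6.9%, beside 4.88% of all genes) and 5 were lower (8.62%, beside 5.64% of all genes). The 4 were EIF3K, EIF1, EIF3H and EIF2B5, and the 5 were EEF1D, EIF4E3, EIF4EBP1, EIF4E2 and EIF4EBP2. All of these 9 also had groups that did not overlap. Among all 58, groups did not overlap in 6 genes with higher affected values (10.3%, beside 5.8% of all genes) and in 8 with lower affected values (13.8%, beside 41.7% of all genes). The share that was lower without overlap lay far under its background in this fit. Without probe sets that followed unexpressed control tags (described below), 5 of 55 factor genes were lower without overlap, beside 11.6% of all genes. The share of all genes was 16.8% after quantile normalization and 15.3% with each array centred on its median, with 5 and 4 factor genes lower without overlap. By the same scalings, 6 and 4 factor genes were higher at an unadjusted p under 0.05 (beside 6.09% and 6.55% of all genes) and 4 and 4 were lower (beside 6.96% and 2.23%).

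These counts moved with single dogs, and so did the background. At an unadjusted p under 0.05, 2 factor genes were higher without affected 1 or without affected 3 (beside 3.24% and 3.31% of all genes), and 8 without affected 2 (beside 6.97%). Without control 1, control 3 or affected 3, 3 were lower (beside 2.32%, 3.97% and 1.91%). Without overlap, 12 were higher when control 1 or control 2 was left out (beside 10.7% and 12%), 14 without affected 2 (beside 12.7%) and 11 without affected 3 (beside 8.16%). Without control 2, 13 were lower without overlap (beside 48.3%). A term for affected 1 and affected 3, the arrays that stood apart in the spiked control transcripts, leaves affected 2 alone against the controls. Its counts are therefore not given.

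The median difference (affected minus control) over the 58 genes was 0.072 on the log2 scale, beside -0.075 over all 15115 genes. Of the 58, 37 lay above 0 (63.8%), beside 35% of all genes, and 21 lay under 0, beside 65% of all genes. The share of all genes above 0 moved with the scaling, to 44.3% after quantile normalization and to 48.9% with each array centred on its median. There, 32 and 42 of the 58 lay above 0. It was 51.1% with the 40% of probe sets of smallest range left out, where 35 of 52 factor genes lay above 0. Without probe sets that followed unexpressed control tags (described below) it was 56.3%, with 39 of 55 factor genes above 0. The factors' own median kept its sign in all 18 alternatives, from 0.017 without control 3 to 0.15 without control 1. Among these, the robust variance prior, sex and the replicate block could not change it. Single differences ran from -1.15 to 0.98, and 39 of the 58 were under 0.25 in size. A difference over 0.5 in size was seen in 6 factor genes, and in 9.61% of all genes. The EIF genes had a median difference of 0.077 and the EEF genes of 0.067.

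**Figure D1:**
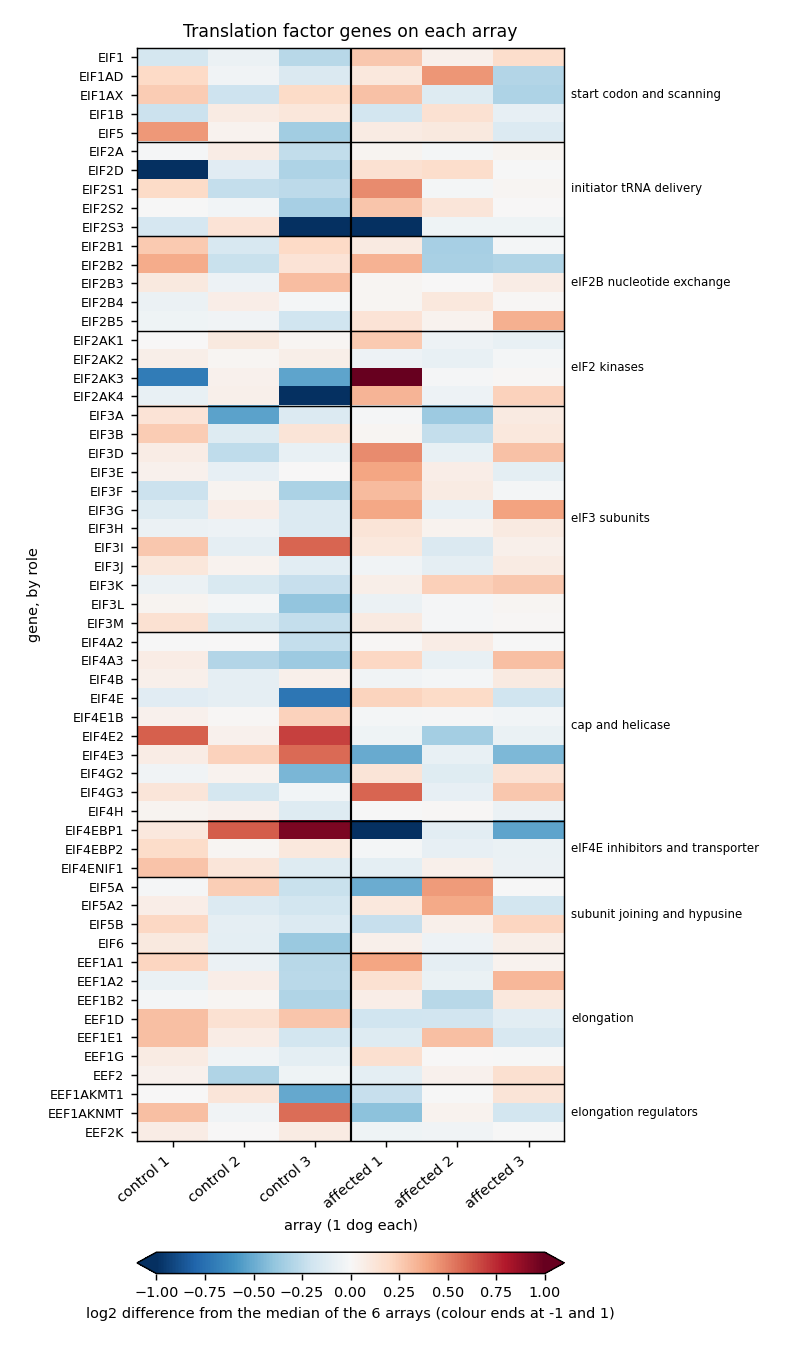
Value of each of the 58 factor genes (lines, ordered by role) on each of the 6 arrays, as the log2 difference from the median of the 6 arrays; colours end at -1 and 1. The column of control 3 is mostly blue, EIF4EBP1 turns from red in controls to blue in affected dogs, and the dark cells of EIF2D and EIF2S3 come from 1 probe set each.

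Control 3 held the lowest of the 6 values in 29 of the 58 factor genes (50%), beside 19.3% of all genes. It held the highest value in 15.5% of the factor genes and in 46.9% of all genes, so this array stood at opposite ends for the factors and for genes at large. The array medians of the 58 genes were 0.062, -0.021 and -0.13 in controls 1 to 3 and 0.065, -0.016 and 0.0058 in affected 1 to 3. The control and affected arrays overlapped in that median, with control 1 level with affected 1. The factors did not move as 1 block, since the median correlation between pairs of the 58 genes over the 6 arrays was 0.10. That value is a description over arrays that share dogs, breed and scaling.

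Array-wide measures differed between the arrays. Of those given here, the tag mean, the median of all genes and the fibroblast median separated the groups, while the others overlapped. The median of all genes was 0.054, 0.011 and 0.086 in controls 1 to 3 and -0.022, -0.031 and -0.011 in affected 1 to 3. The 17 control probe sets for tags that no dog transcript carries had means from 0.011 to 0.13 in controls and from -0.032 to -0.014 in affected arrays (difference -0.093, two-sided exact permutation p = 0.1, the smallest that 3 against 3 arrays allow). Of all probe sets, 41.8% followed these tags at a correlation over 0.9, against 16 of the 127 factor probe sets (12.6%). The added polyA control transcripts were at 2.48 on affected 3 and 0.48 on affected 1, and from -0.21 to -0.019 on the others. Fibroblast markers had array medians of -0.30, -0.035 and -1.35 in controls and 0.99, 0.035 and 0.66 in affected arrays, with 10 of 13 above 0 in affected minus control. Macrophage and monocyte markers were above 0 in 13 of 14 and highest on affected 1 in 13 of 14, with array medians from -0.61 to 0.70 in controls and from -0.11 to 1.98 in affected arrays. Cardiomyocyte markers were above 0 in 12 of 15, with a median difference of 0.15 and array medians from -0.11 to 0.023 in controls and from 0.021 to 0.12 in affected arrays. The part of these measures in the factor values was not tested.

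**Figure D2:**
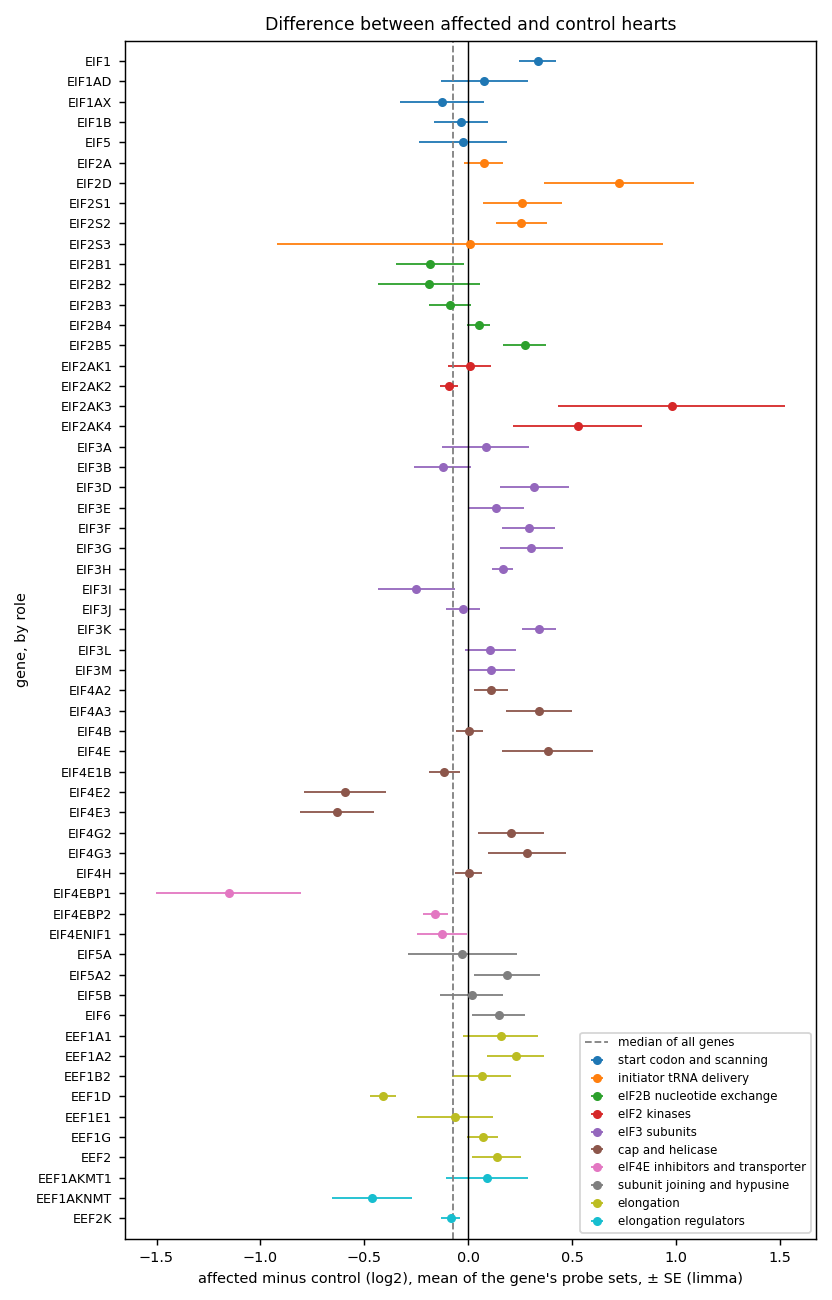
Difference between affected and control hearts (affected minus control, log2) for each of the 58 factor genes by role, with limma's moderated standard error as the bar; the dashed line is the median of all genes at -0.075. EIF4EBP1 lies lowest at -1.15 and EIF2AK3 highest at 0.98, with the bars of EIF2AK3 and EIF2S3 among the widest.

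Of the 5 start codon and scanning factors, EIF1, which keeps the scanning ribosome in its open state, differed most. EIF1 read -0.17, -0.055 and -0.28 in controls 1 to 3 and 0.27, 0.051 and 0.17 in affected 1 to 3. Every affected dog was above every control, with group means of -0.17 ± 0.11 and 0.17 ± 0.11 (SD, n = 3 each). The difference was 0.33 (limma, SE 0.088, unadjusted p = 0.0113, adjusted p = 0.322), or 1.26-fold. All 5 of its probe sets pointed the same way, with differences of 0.21, 0.40, 0.39, 0.35 and 0.33, and 4 of them had separate groups. Probe sets whose names end in _s_at or _x_at, as 4 of these 5 do, can match several transcripts or share probes, and EIF1B, the close relative of EIF1, had a single probe set at -0.034.

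The other scanning factors did not separate the groups. EIF5, which makes eIF2 hydrolyse its GTP at the start codon, differed by -0.026, and its value turned to 0.046 with arrays centred on their median. EIF1AX, the eIF1A that binds beside eIF1, differed by -0.13 (SE 0.20). The probe sets of EIF1AD, named for its eIF1A domain, pointed opposite ways: 1 read 0.056, -0.056 and -0.56 in controls and 0.72, 0.87 and -0.081 in affected dogs, a difference of 0.69. The other read 0.34, -0.015 and 0.28 in controls and -0.51, 0.015 and -0.50 in affected dogs, a difference of -0.53. Their mean of 0.078 therefore described neither.

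All 5 factors that deliver the initiator tRNA lay above 0, EIF2S3 by only 0.0088, with a median difference of 0.26. Without control 3, 3 of the 5 lay above 0 and the median was 0.15, and without affected 2 or affected 3, 4 of the 5 did. EIF2S1, the eIF2 subunit that the stress kinases phosphorylate, read 0.19, -0.24 and -0.26 in controls and 0.47, -0.022 and 0.022 in affected dogs. Affected 1 was highest, control 1 came next, and the difference of 0.26 (SE 0.19, adjusted p = 0.373) lay within the spread of the dogs. EIF2S2, the beta subunit, read -0.0026, -0.024 and -0.33 in controls and 0.28, 0.12 and 0.0026 in affected dogs. Its groups did not overlap, but the gap between control 1 and affected 3 was far smaller than the spread within either group (difference 0.26, SE 0.12, adjusted p = 0.322). EIF2A, which can bring initiator tRNA without eIF2, differed by 0.075.

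EIF2S3, the gamma subunit that binds GTP and the tRNA, had probe sets that ran against each other over the arrays (median correlation between them -0.89), a case singled out after the values were seen. One of its 3 probe sets read 0.040, 0.32 and -7.84 in controls and -8.35, 0.069 and -0.040 in affected dogs. Control 3, a male, and affected 1, a female, were 8.19 under the mean of the other 4 arrays, and these were the lowest and next lowest values of the whole table, after which came -6.86. No other probe set of the array lay under -3 on exactly these arrays and over -1 on the rest. The other EIF2S3 probe sets had their highest values on the same arrays, at 0.34 and 0.75 for one and at 0.52 and 0.86 for the other. The gene mean gave a difference of 0.0088 (SE 0.93), and without that probe set 0.15 (adjusted p = 0.743).

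EIF2D, which can also place initiator tRNA on the ribosome, had a comparable single value. One of its 4 probe sets read -5.65, -0.63 and -0.22 in controls and 0.22, 0.26 and 0.44 in affected dogs. Control 1 alone was far down, and this was the only probe set of the array under -3 on control 1 and over -1 elsewhere, beside 34 such probe sets for control 3. Its other 3 probe sets differed by -0.16, 0.14 and 0.44, and the one named for the same transcript with the ending _s_at read -0.090 on control 1. The gene mean differed by 0.73 (SE 0.36, adjusted p = 0.322), with separate groups, and by 0.14 (adjusted p = 0.489) without the low probe set. The separation of its groups was then gone, which left 5 factor genes higher without overlap.

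**Figure D3:**
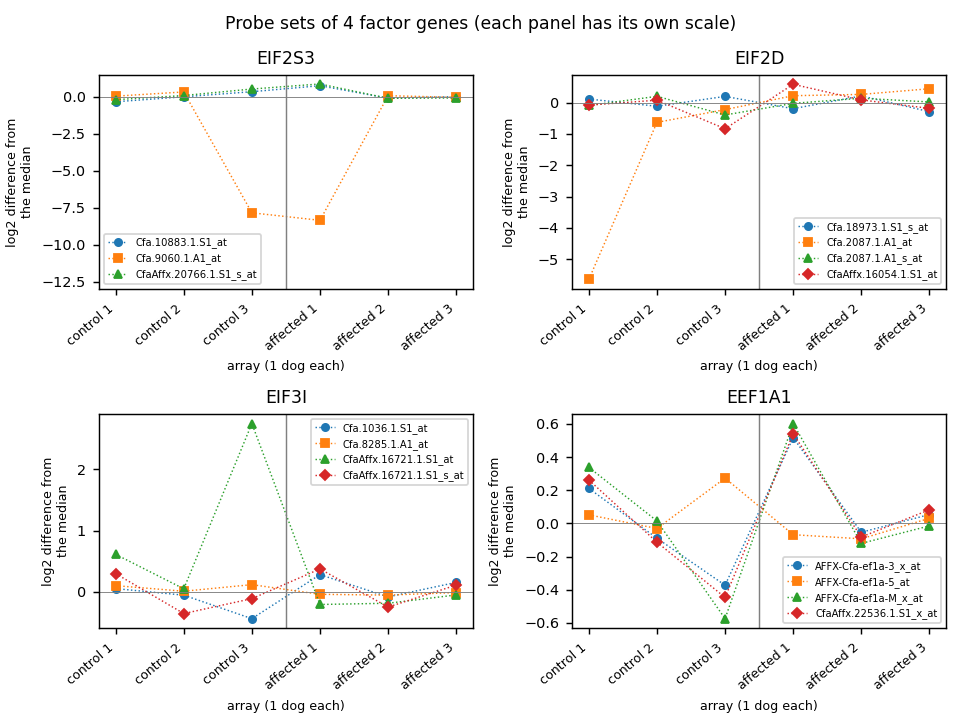
Values of the single probe sets of EIF2S3, EIF2D, EIF3I and EEF1A1 on the 6 arrays (log2 difference from the median; each panel has its own scale, and dotted lines only join the points of a probe set). One probe set of EIF2S3 drops on control 3 and affected 1, one of EIF2D drops on control 1, and one of EIF3I peaks on control 3 at 2.75.

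Of the eIF2B subunits, which recharge eIF2 with GTP, 2 of 5 lay above 0 and the median was -0.086, which turned to above 0 without control 3 and without the probe sets that follow the tags. EIF2B5, the catalytic subunit, read -0.044, -0.038 and -0.20 in controls and 0.14, 0.038 and 0.36 in affected dogs. The groups were separate (means -0.094 ± 0.092 and 0.18 ± 0.16, SD, n = 3 each), with a difference of 0.27 (limma, SE 0.10, unadjusted p = 0.0425, adjusted p = 0.322). Its 2 probe sets opposed each other, at 0.71 and -0.17, and both had separate groups. The one at -0.17 followed the unexpressed tags at a correlation of 0.98. EIF2B3 showed the same split, looked at after its values were seen: the 2 probe sets that follow the tags differed by -0.56 and -0.31, the other 2 by 0.27 and 0.26. EIF2B1 and EIF2B2 differed by -0.18 and -0.19, with both groups spanning 0.

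Of the 4 eIF2 kinases, 3 lay above 0, with a median of 0.27. That median was 0.093 without control 3 and 0.15 without affected 1, with 2 of 4 above 0 in each case. EIF2AK3, known as PERK, the kinase of the endoplasmic reticulum, had the widest range of the 4. It read -0.70, 0.040 and -0.53 in controls and 1.75, -0.014 and 0.014 in affected dogs. Affected 1 stood alone, while affected 2 and affected 3 lay under control 2, so the groups overlapped. The difference was 0.98 (SE 0.55, adjusted p = 0.322), or 1.97-fold, and 0.40 without affected 1.

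EIF2AK4, or GCN2, which senses uncharged tRNA, read -0.077, 0.047 and -1.02 in controls and 0.34, -0.047 and 0.23 in affected dogs. Control 3 stood alone at the low end, and the difference of 0.53 (SE 0.31, adjusted p = 0.324) was 0.19 without it. EIF2AK2, or PKR, which binds double-stranded RNA and is induced by interferon, read 0.059, 0.021 and 0.060 in controls and -0.047, -0.071 and -0.021 in affected dogs. Its groups were separate but narrow (difference -0.093, SE 0.042, adjusted p = 0.322), and its correlation with the tags was 0.88. EIF2AK1, the heme-regulated kinase, differed by 0.0064 and turned to -0.011 after quantile normalization. Each of EIF2AK2, EIF2AK3 and EIF2AK4 rested on 1 probe set.

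Of the 12 eIF3 subunits, the large scaffold that holds the small ribosomal subunit, 9 lay above 0, with a median of 0.12 that stayed above 0 in all 18 alternatives, from 0.041 with a term for affected 1 and affected 3 to 0.21 without control 1. EIF3K, a small subunit at the edge of the complex, read -0.061, -0.15 and -0.23 in controls and 0.061, 0.24 and 0.27 in affected dogs. Every affected dog was above every control (means -0.15 ± 0.085 and 0.19 ± 0.11, SD, n = 3 each), on 1 probe set. The difference was 0.34 (limma, SE 0.081, unadjusted p = 0.00781, adjusted p = 0.322), the smallest p among the factor genes that were higher.

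EIF3H, another outer subunit, read -0.061, -0.047 and -0.13 in controls and 0.13, 0.036 and 0.092 in affected dogs. The groups were separate, with a difference of 0.17 (limma, SE 0.051, unadjusted p = 0.0209, adjusted p = 0.322). Of its 2 probe sets, 1 differed by 0.30 with separate groups and the other by 0.035 with overlap. EIF3A, the largest core subunit, read 0.14, -0.54 and -0.13 in controls and -0.0094, -0.36 and 0.088 in affected dogs. Control 2 and affected 2 were the low arrays, so the spread lay within the groups and the difference was 0.083 (SE 0.21). The low values came from 1 of its 2 probe sets, which read -1.12 on control 2 and -0.68 on affected 2, while the other read 0.042 and -0.046 there.

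EIF3D, which can bind the cap itself, and EIF3G and EIF3F were each higher on average, by 0.32, 0.30 and 0.29, with overlapping groups. All 3 probe sets of EIF3F differed in that direction, by 0.21, 0.28 and 0.38. The lowest gene value of the group was that of EIF3I, at -0.25, and it rested on 1 of 4 probe sets. That probe set read 0.61, 0.050 and 2.75 in controls and -0.21, -0.19 and -0.050 in affected dogs, and it followed the tags at a correlation of 0.96. Another differed by -0.11 and also followed the tags (0.95), and the last 2 differed by 0.26 and 0.13. Without the first, EIF3I stood at 0.096 (adjusted p = 0.602), so its sign turned. EIF3B, EIF3E, EIF3J, EIF3L and EIF3M lay between -0.12 and 0.13.

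Of the 10 cap and helicase factors, 7 lay above 0, beside 35% of all genes. At limma's unadjusted p under 0.05, 2 were lower, beside 5.64% of all genes. EIF4E3, a relative of eIF4E that binds the cap in an atypical way, read 0.073, 0.23 and 0.57 in controls and -0.50, -0.073 and -0.45 in affected dogs. Every affected dog was under every control (means 0.29 ± 0.25 and -0.34 ± 0.23, SD, n = 3 each). The difference was -0.63 (limma, SE 0.18, unadjusted p = 0.0148, adjusted p = 0.322), or 0.645 of the control level.

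EIF4E2, known as 4EHP, a cap binder that represses rather than starts translation, read 0.60, 0.045 and 0.69 in controls and -0.045, -0.34 and -0.069 in affected dogs. The groups were separate, with control 2 next to affected 1, and the difference was -0.59 (limma, SE 0.20, unadjusted p = 0.0275, adjusted p = 0.322). Its single probe set ends in _x_at and followed the tags at a correlation of 0.93. EIF4E1B, a relative of eIF4E known from oocytes, followed them at 0.95 and differed by -0.11. The correlation of EIF4E3 with the tags was 0.83.

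EIF4E itself read -0.11, -0.093 and -0.73 in controls and 0.22, 0.19 and -0.20 in affected dogs. Control 3 was lowest, affected 3 lay under the other controls, and the difference of 0.38 (SE 0.22, adjusted p = 0.322) moved to 0.18 when control 3 was left out. Its 2 probe sets differed by 0.64, with separate groups, and by 0.12. So EIF4E lay above 0 and its relatives EIF4E2 and EIF4E3 under 0, in every one of the alternatives in which they could be computed. Some of these alternatives, named below, could not turn a sign.

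EIF4A2, the helicase that unwinds the 5' leader, read -0.0015, 0.0003 and -0.24 in controls and 0.015, 0.074 and -0.0003 in affected dogs. All arrays but control 3 lay close together, and the difference was 0.11 (SE 0.082, adjusted p = 0.378). EIF4A3, a related helicase that sits in the exon junction complex, differed by 0.34 (SE 0.16) with overlap. The scaffolds EIF4G2 and EIF4G3 differed by 0.20 and 0.28. EIF4B and EIF4H, which assist the helicase, differed by 0.0054 and 0.0022, well inside their standard errors of 0.066 and 0.065.

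The eIF4E inhibitors held the largest difference of the set. EIF4EBP1, the binding protein that sequesters eIF4E when mTOR is inactive, read 0.10, 0.61 and 0.94 in controls and -1.18, -0.10 and -0.52 in affected dogs. Every affected dog was under every control, with group means of 0.55 ± 0.42 and -0.60 ± 0.54 (SD, n = 3 each). The difference was -1.15 (limma, SE 0.35, 95% interval -2.03 to -0.27, unadjusted p = 0.0194, adjusted p = 0.322), or 0.450 of the control level. Its 2 probe sets gave -1.02 and -1.29 and correlated at 0.98 over the arrays. Leaving out any 1 dog kept the value between -1.40 and -0.86, and over all 18 alternatives it ran from -1.40 to -0.65. Its correlation with the tags was 0.76.

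EIF4EBP2, its relative, read 0.19, 0.018 and 0.11 in controls and -0.018, -0.083 and -0.067 in affected dogs. The groups were separate by a small gap between control 2 and affected 1, with a difference of -0.16 (limma, SE 0.060, unadjusted p = 0.043, adjusted p = 0.322). One of its 2 probe sets followed the tags at 0.99 and differed by -0.071, and the other differed by -0.25 at a correlation of 0.68. EIF4ENIF1, which carries eIF4E into the nucleus, differed by -0.13 with overlap. All 3 genes of this group lay under 0.

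**Figure D4:**
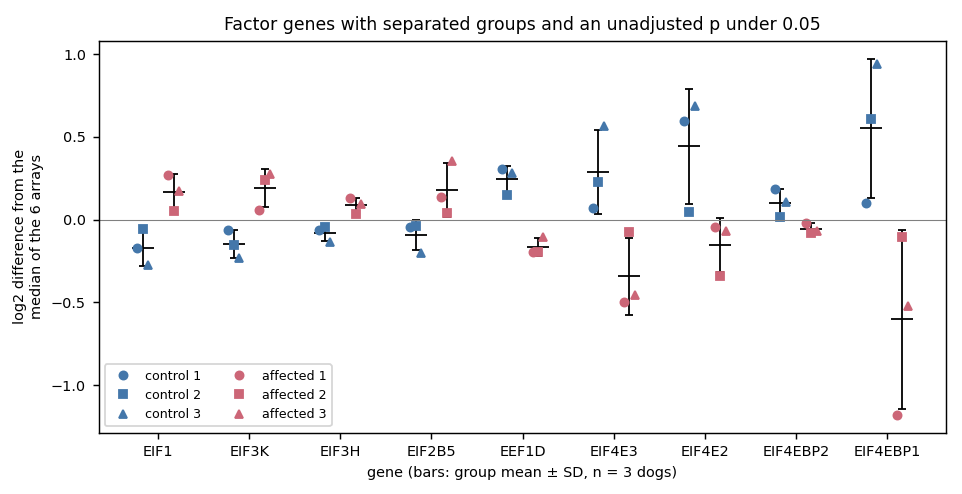
Value on each array (log2 difference from the median of the 6 arrays) of the 9 factor genes with an unadjusted p under 0.05 and separate groups; bars are group means ± SD, n = 3 dogs each. EIF4EBP1, at the right, spans from 0.94 on control 3 to -1.18 on affected 1, while EIF3H and EIF4EBP2 span the narrowest ranges of the 9.

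Of the 4 factors of subunit joining and of the hypusine protein, 3 lay above 0, and 2 without control 3, affected 2 or affected 3. EIF5A, which carries the amino acid hypusine and eases peptide bond formation, read -0.015, 0.25 and -0.23 in controls and -0.50, 0.42 and -0.0047 in affected dogs. The lowest and the highest value were both in affected dogs, and the difference was -0.028 (SE 0.26), which turned to 0.045 with arrays centred on their median. Its probe sets differed by -0.21, -0.040 and 0.16. EIF5A2, its second form, differed by 0.19 (SE 0.16).

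EIF6, which keeps free large subunits from joining, read 0.097, -0.10 and -0.37 in controls and 0.054, -0.048 and 0.060 in affected dogs. Control 1 was highest and control 3 lowest, so the affected dogs lay between controls, and the difference was 0.15 (SE 0.13, adjusted p = 0.437). Its 2 probe sets gave 0.14 and 0.15. EIF5B, the GTPase of subunit joining, differed by 0.017 and turned to -0.0094 after quantile normalization.

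Of the 7 elongation genes, 5 lay above 0, with a median of 0.069 that was 0.015 without affected 1, 0.029 without control 3, 0.12 without control 1 and 0.13 without affected 2. EEF1D, the delta subunit of the eEF1B exchange complex, read 0.30, 0.15 and 0.28 in controls and -0.20, -0.20 and -0.10 in affected dogs. The groups were separate and tight (means 0.24 ± 0.083 and -0.17 ± 0.054, SD, n = 3 each). The difference was -0.41 (limma, SE 0.063, unadjusted p = 0.00104, adjusted p = 0.322), or 0.753 of the control level, with the smallest p of all 58 genes. Both of its probe sets had separate groups, at -0.27 and -0.55, and the latter followed the tags at 0.91.

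EEF1B2 and EEF1G, the eEF1B partners of EEF1D, did not share that difference in size, nor in sign with the values as deposited. EEF1B2, the catalytic subunit, differed by 0.065 (SE 0.14) and turned to -0.023 after quantile normalization, and EEF1G, the gamma subunit, differed by 0.069 (SE 0.076). EEF1E1, which belongs to the aminoacyl-tRNA synthetase complex, differed by -0.063 (SE 0.18) and turned to 0.0093 with arrays centred on their median.

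EEF1A1, the carrier of aminoacyl-tRNA in most cells, read 0.22, -0.055 and -0.28 in controls and 0.40, -0.087 and 0.038 in affected dogs. Affected 1 was highest and control 3 lowest, and the difference of 0.16 (SE 0.18, adjusted p = 0.559) lay within the spread of the dogs. It had 4 probe sets, 3 of which the array carries as controls for RNA quality. Those for the 3' end and the middle differed by 0.26 and 0.23, that for the 5' end by -0.14, and the other by 0.28. The 3' minus 5' value was 0.16, -0.059 and -0.65 in controls and 0.59, 0.039 and 0.023 in affected dogs (difference 0.40, two-sided exact permutation p = 0.4). This measure is made from probe sets that also enter the gene value of EEF1A1. The same measure differed by 0.54 for beta-actin (exact permutation p = 0.3), highest on affected 3 at 1.05 and lowest on control 1 at -0.46, and by 0.031 for GAPDH (exact permutation p = 0.9), so the 3 transcripts ordered the arrays differently.

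EEF1A2, the form that replaces EEF1A1 in mature muscle and neurons, read -0.064, 0.064 and -0.27 in controls and 0.15, -0.066 and 0.33 in affected dogs. Affected 2 lay among the controls, and the difference was 0.23 (SE 0.14, adjusted p = 0.324). EEF2, the translocation factor, read 0.045, -0.30 and -0.045 in controls and -0.098, 0.047 and 0.16 in affected dogs. Control 2 was lowest, and the difference was 0.14 (SE 0.12, adjusted p = 0.435).

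EEF2K, the kinase that halts eEF2, read 0.075, 0.0064 and 0.086 in controls and -0.043, -0.035 and -0.0064 in affected dogs. The groups were separate within a range of 0.13, with a difference of -0.084 (SE 0.045, adjusted p = 0.322), and the probe set followed the tags at a correlation of 0.94. EEF1AKNMT, a methyltransferase of eEF1A, differed by -0.46 (SE 0.19, adjusted p = 0.322), with control 2 and affected 2 close together at -0.037 and 0.037. EEF1AKMT1, another one, differed by 0.092 (SE 0.20), with control 3 lowest at -0.51.

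Probe sets of one gene often disagreed. Of the 38 genes with several probe sets, 17 had all of them on one side of 0 and 21 had both signs. In 3 genes they differed by more than 1 from each other: EIF2D by 2.63, EIF3I by 1.55 and EIF1AD by 1.22. Leaving out probe sets that follow the tags brought 4 of the 21 to one sign. Among the 124 factor probe sets that were tested, 0 passed the adjusted threshold (limma, beside 0.00233% of all), 11 were higher at an unadjusted p under 0.05 (beside 4.53% of all) and 12 were lower (beside 6.32% of all). When single dogs were left out, 6 were higher without control 3 or affected 1 (beside 2.63% and 3.24% of all genes), and 17 without affected 2 (beside 6.97%). Lower ones numbered 21 without control 2 (beside 24% of all genes) and 5 without control 1 (beside 2.32%). They numbered 4 without control 3 or affected 1 (beside 3.97% and 1.85%), and 3 without affected 3 (beside 1.91%). The shares of all probe sets in these fits are not given here.

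Other genes of the translation machinery were read from lists beside the factors. Of 59 cytosolic ribosomal protein genes, which make up the ribosome that the factors serve, 48 lay above 0 (beside 35% of all genes), with a median difference of 0.19. At an unadjusted p under 0.05, 9 were higher and 1 lower, beside 4.88% and 5.64% of all genes. Affected 1 was the highest array in 44 of the 59, and the median was 0.12 without affected 1 and 0.29 without affected 2. With a term for affected 1 and affected 3, which leaves affected 2 alone against the controls, the median was -0.013. RPL35 differed by 0.42 (limma, SE 0.062, unadjusted p = 0.000868, adjusted p = 0.322), with all affected dogs above all controls. Of 20 genes for aminoacyl-tRNA synthetases and their complex, which charge the tRNAs that eEF1A carries, 17 lay above 0, beside 35% of all genes. At an unadjusted p under 0.05, 2 were higher, beside 4.88% of all genes. The median of the 20 was 0.086. That median was 0.0041 without affected 1, 0.032 without control 2, 0.048 without control 3 and 0.21 without control 1.

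Further lists held genes that act on the factors. Of 20 growth control genes around mTOR, which signals to the 4E-binding proteins, 6 lay above 0, beside 35% of all genes. None of the 20 passed an unadjusted p under 0.05. Of 19 genes of the integrated stress response, the programme downstream of the eIF2 kinases, 11 lay above 0, beside 35% of all genes. At that p, 1 of the 19 was higher, beside 4.88% of all genes. Without affected 3, 6 of the 19 lay above 0, and without control 2 or affected 1, 8 did, each with a median under 0. That gene was DDIT3, a stress transcription factor, which read -0.19, -0.29 and -0.51 in controls and 0.73, 0.67 and 0.19 in affected dogs. Its difference was 0.86 (limma, SE 0.17, unadjusted p = 0.00356, adjusted p = 0.322). ATF4, whose mRNA is translated when eIF2 is phosphorylated, differed by 0.34 with overlap. A list of 11 hypusine and diphthamide genes held those that modify eIF5A and eEF2. At an unadjusted p under 0.05, 1 was higher and 1 lower, beside 4.88% and 5.64% of all genes. DHPS, the enzyme of the first step towards hypusine on eIF5A, differed by 0.51 (limma, SE 0.12, unadjusted p = 0.00769), and DPH3, of the diphthamide pathway, by -0.52. DOHH, which completes hypusine, differed by 0.013 (SE 0.046).

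**Figure D5:**
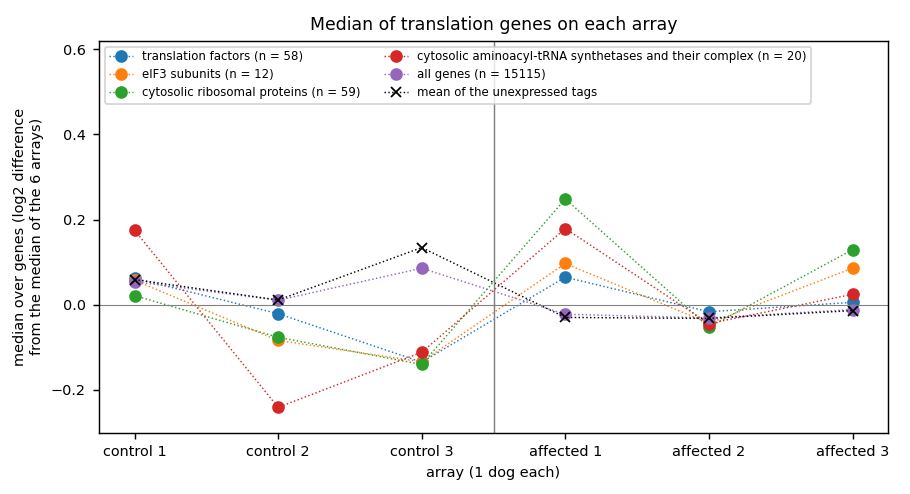
Median over the genes of each list on each array (log2 difference from the median of the 6 arrays), with the mean of the 17 unexpressed tag probe sets as crosses; dotted lines only join the points of a list. The 58 factors range from -0.13 on control 3 to 0.065 on affected 1, the ribosomal proteins reach 0.25 on affected 1, and all genes and the tags are both highest on control 3.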

How the data were processed

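The deposited table held log2 values of 43035 probe sets on 6 arrays, made by the authors. GCRMA and MAS5 appear in the submitters' processing notes, without a role, an order or a version. That the scale is log2 was read from these tools and from the range of the values, -8.35 to 10.7. Each probe set had a median of 0 over the 6 arrays. The genome build is not given in the sources used here. RNA was extracted with Qiagen RNeasy and DNase and labelled by the standard 1-cycle method, per the labels. The titles describe biological replicates, so each array was taken as 1 dog, and with 3 arrays in each group their number limits precision.

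Probe sets with exactly 1 symbol in the platform annotation (29264) were averaged per gene, unfiltered; 439 had several symbols and 13332 were not listed. Of the 58 factor genes, 54 were found by Entrez ID in the RefSeq table and all 54 had the same symbol. The contrast of affected with control was fitted by lmFit and eBayes, two-sided and without a trend or covariates (limma 3.58.1, R 4.3.3; residual degrees of freedom 4, prior 1.28). P-values were adjusted over 15115 genes by Benjamini-Hochberg, with a threshold of 0.05. The same was done for 42924 probe sets without the 111 array control probe sets. SE is limma's moderated standard error. Values on every array are given for factor genes at an unadjusted p under 0.05 with separate groups and for 15 regulators and core factors where measured, and probe sets singly for these and for genes whose probe sets differ by more than 1. The members and lists were chosen with earlier results of these data known. The steps were tested on simulated data. Alternatives changed the filter (leaving out 40% of probe sets, those of smallest range), the scaling, the probe sets that follow the tags, the prior, the covariates, the replicate block, the gene value and the dogs included.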

Additional observations from a re-analysis of the deposited data

How the results depend on the processing

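No factor gene or factor probe set passed the adjusted threshold in limma under any alternative. Of the 58 genes 34 kept their sign in every one, though some alternatives, named below, could not turn a sign. With the replicate number as a block (replicate block), 6 genes were higher and 5 lower at limma's unadjusted p under 0.05 (beside 5.54% and 4.44% of all genes), and 16 and 8 probe sets. Shares given in this section are of all genes, and those of all probe sets are not given. The numbers name different dogs, and same-numbered arrays correlated in their deviations from the group means at 0.25, 0.16 and 0.064, so the fit was not taken as paired, although each array correlated best with its own number. Causes of the changes listed here were not tested.

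With the range filter (52 factor genes left), 1 gene was higher (beside 6.61% of all genes) and 5 were lower without overlap (beside 21.3%). In that setting 5 probe sets were higher and 7 lower, and the median of all genes was 0.012. After quantile normalization 5 genes were lower without overlap (beside 16.8% of all genes) and 19 probe sets higher, where 6.09% of all genes were higher. The sign turned there for EIF4H (-0.011), EIF2AK1 (-0.011), EEF1B2 (-0.023), EEF1AKMT1 (-0.020) and EIF5B (-0.0094). With arrays centred on their median 4 genes were lower without overlap (beside 15.3% of all genes) and 7 probe sets lower, where 2.23% of all genes were lower. The sign turned there for EIF5A (0.045), EIF3J (0.045), EEF1E1 (0.0093), EIF1B (0.038) and EIF5 (0.046). Without probe sets that follow the tags, 55 factor genes were left, and EIF4E2, EEF2K and EIF4E1B dropped out. There, 3 genes were lower (beside 2.3% of all genes), 5 lower without overlap (beside 11.6%) and 6 probe sets lower. The median of all genes was 0.049, and EIF2B3 (0.26) and EIF3I (0.20) turned. With age as a covariate 8 genes were higher (beside 7.43% of all genes) and 6 lower (beside 19.4%), and 18 probe sets were higher and 17 lower. EIF4B (-0.0024) and EIF5 (0.061) turned there. A term for affected 1 and affected 3 leaves affected 2 alone against the controls, so these values rest on 1 affected dog. The sign turned there for EEF1A1 (-0.048), EIF3A (-0.18), EIF5A (0.42), EIF4B (-0.027), EIF4G3 (-0.055), EIF2AK1 (-0.086), EIF3G (-0.0068), EEF1B2 (-0.18), EEF1E1 (0.23), EIF1B (0.16) and EIF5 (0.053). With the probe set of largest range, EIF2B4 (-0.19) and EIF2S3 (-0.28) turned, with the median of the probe sets EIF4B (-0.060) and EIF5B (-0.030), and without the 3 probe sets that stand apart, an alternative chosen after seeing the data, EIF3I (0.096).

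With each dog left out in turn, genes higher at limma's unadjusted p under 0.05 ranged from 2 to 8 (beside 2.63% to 6.97% of all genes) and lower from 3 to 7 (beside 1.85% to 24%). Higher without overlap ranged from 6 to 14 (beside 6.82% to 12.7%) and lower without overlap from 8 to 13 (beside 43.1% to 48.3%). Probe sets ranged from 6 to 17 higher and 3 to 21 lower. Gene differences that changed sign ranged from -0.097 to 0.24 for EIF3A, -0.25 to 0.21 for EIF5A, -0.042 to 0.029 for EIF4B, -0.054 to 0.034 for EIF4H, -0.10 to 0.067 for EIF2AK1, -0.17 to 0.010 for EIF2B3, -0.0037 to 0.24 for EIF3E, -0.088 to 0.024 for EIF3J, -0.026 to 0.19 for EIF3L, -0.035 to 0.19 for EEF1B2, -0.21 to 0.055 for EEF1E1, -0.10 to 0.22 for EEF1AKMT1, -0.018 to 0.14 for EIF2A, -0.76 to 0.74 for EIF2S3, -0.10 to 0.27 for EIF1AD, -0.30 to 0.0045 for EIF1AX, -0.14 to 0.039 for EIF1B, -0.22 to 0.17 for EIF5 and -0.084 to 0.14 for EIF5B. Robust variance, sex as a covariate and the replicate block leave each gene's difference as it was in this balanced design, so they could not turn a sign.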

Other observations

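Of 20 interferon-induced genes, a programme that includes EIF2AK2, 19 lay under 0 in affected minus control (beside 65% of all genes), with a median difference of -0.29. Without control 2, 7 lay above 0 and the median was -0.071; it was -0.17 without affected 2 and -0.45 without control 1. At limma's unadjusted p under 0.05, 3 were lower and 0 higher, beside 5.64% and 4.88% of all genes. Control 2 held the highest value in 10 of the 20, with an array median of 0.82, whereas EIF2AK2 read 0.021 there. CXCL10, an interferon-induced chemokine, differed by -3.54 (limma, SE 0.44, unadjusted p = 0.000362, adjusted p = 0.322). Of 14 genes of poly(A) binding, termination and recycling, 7 lay above 0 (beside 35% of all genes) and 0 passed an unadjusted p under 0.05. Of 11 mitochondrial translation factors, 7 lay above 0 and 1 was higher at an unadjusted p under 0.05 (beside 4.88% of all genes). That gene was MTIF3, a mitochondrial initiation factor, at 0.44 (SE 0.16, unadjusted p = 0.0392). Markers of endothelium, lymphocytes, smooth muscle and skeletal muscle fibres had median differences of -0.28, -0.093, -0.055 and -0.10, and those of adipocytes 0.27. The tags were followed at a correlation over 0.9 by 7 of 10 lymphocyte markers and by 5 of 9 skeletal muscle fibre markers. Single differences ran from -0.82 to 0.89 among endothelial markers and from -0.39 to 3.57 among skeletal muscle fibre markers.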
